A study of Mus musculus with 6 samples.

Results

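Keratins are the intermediate filament proteins of epithelial cells, and 8 of them were followed here in mouse oocytes that lacked Zar1: Krt8, Krt18, Krt25, Krt27, Krt73, Krt12, Krt84 and Krt88. They are 8 of the 54 keratin genes found among 53700 gene rows. They were listed as keratins gained in the knockout, and so were chosen by their counts in the same knockout and wild-type libraries. Their levels and fold changes in that comparison are therefore given as a description, without a test. The gain held for 6 of the 8. Krt88 was lower in the knockout and Krt18 had at most 2 counts in any library, so the label does not describe these.

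The data are counts of polyA RNA in oocytes at the germinal vesicle (GV) stage, when meiosis is still arrested in prophase. There were 3 libraries from Zar1 knockout (Zar -/-) mice and 3 from wild-type (Zar +/+) mice, all on a C57BL/6N background, each made from 10 pooled oocytes. The labels call the pools biological replicates without tying them to animals, so a p-value measures the spread between pools, which may be technical. No age and no description of the deletion was found in the labels. Zar1 encodes an RNA-binding protein of the oocyte; its mRNA had 69, 96 and 226 counts in the knockout libraries, against 15245, 13612 and 12810 counts in the wild-type libraries.

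The libraries held between 32126555 and 39148833 counts in genes. Levels are given in CPM, the usual scaling of counts to library size, here with TMM factors that adjust for composition, and 1 count is worth between 0.0248 and 0.0308 CPM. All 12 listed oocyte markers, Zp3, Gdf9 and Bmp15 among them, passed the filter on low counts. Their summed level lay between 18060 and 19200 CPM in the knockout and between 16910 and 18350 CPM in wild type. The sum hides changes of single markers: by the test named next, 6 of the 12 were higher and 2 lower in the knockout. Zp3 was among the higher (log2 fold change 0.61) and Bmp15 among the lower (-0.32). Across the transcriptome 33.4% of the tested genes differed: 14.9% of 16473 tested genes were higher and 18.5% were lower in the knockout (edgeR quasi-likelihood test, Benjamini-Hochberg adjusted p under 0.05), and the number higher dropped to 1541, against 2448, without wild-type replicate 3. Each level is a share of its own library, so a change in the oocyte's total mRNA would not show.

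Keratins come in an acidic type I and a basic type II family, and a filament is built from pairs with a chain of each type. A keratin protein without a partner is unstable in most cells. Cells pair them by tissue: KRT8 with KRT18 in simple epithelia and in the outer layer of the early embryo, and KRT25, KRT27 and KRT28 with KRT71 to KRT73 in the inner root sheath of the hair follicle. KRT12 is the type I keratin of the corneal epithelium, and KRT84 is a type II keratin of hair-forming and tongue epithelia. Oocytes of several species hold keratin in their cortex, and in the ovary Krt8 and Krt18 are also made by the surface epithelium and by granulosa cells. The 8 listed genes hold 4 of type I (Krt18, Krt25, Krt27, Krt12) and 4 of type II (Krt8, Krt73, Krt84, Krt88). In the mouse the type I genes lie together on chromosome 11 and the type II genes on chromosome 15, except that Krt18 lies beside Krt8 at the edge of the type II cluster.

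Promoter windows of 250 bases before to 50 bases after the annotated start were available from RefSeq (GRCm38.p6) for 7 of the 8 genes. The windows of 4 are printed 5′ to 3′ on the gene's own strand: the neighbours Krt8 and Krt18, of which Krt8 was gained and Krt18 had almost no counts, and the hair keratins Krt25 and Krt73, a type I and a type II gene with large gains. Capitals mark the TATA box letters TATAAA and the letters TAATTG, bound by the oocyte homeobox factor NOBOX, on either strand.
Krt8, chr15:102004293-102004592, minus strand: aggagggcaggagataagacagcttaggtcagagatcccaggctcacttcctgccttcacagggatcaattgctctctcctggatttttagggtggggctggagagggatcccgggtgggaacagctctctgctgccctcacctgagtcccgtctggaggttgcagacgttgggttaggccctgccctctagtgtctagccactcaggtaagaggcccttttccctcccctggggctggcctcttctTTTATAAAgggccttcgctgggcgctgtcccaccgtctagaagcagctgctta
Krt18, chr15:102027966-102028265, plus strand: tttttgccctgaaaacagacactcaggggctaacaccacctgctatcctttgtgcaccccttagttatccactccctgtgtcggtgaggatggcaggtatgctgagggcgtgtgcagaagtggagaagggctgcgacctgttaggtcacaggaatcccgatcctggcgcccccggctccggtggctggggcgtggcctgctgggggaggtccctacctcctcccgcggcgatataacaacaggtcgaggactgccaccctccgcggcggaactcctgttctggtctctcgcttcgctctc
Krt25, chr11:99322902-99323201, minus strand: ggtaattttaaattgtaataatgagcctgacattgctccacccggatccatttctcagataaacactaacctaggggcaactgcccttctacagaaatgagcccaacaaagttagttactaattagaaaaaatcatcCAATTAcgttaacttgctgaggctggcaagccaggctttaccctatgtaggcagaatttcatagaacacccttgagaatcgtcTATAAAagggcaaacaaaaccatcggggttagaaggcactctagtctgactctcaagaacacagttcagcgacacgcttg
Krt73, chr15:101802311-101802610, minus strand: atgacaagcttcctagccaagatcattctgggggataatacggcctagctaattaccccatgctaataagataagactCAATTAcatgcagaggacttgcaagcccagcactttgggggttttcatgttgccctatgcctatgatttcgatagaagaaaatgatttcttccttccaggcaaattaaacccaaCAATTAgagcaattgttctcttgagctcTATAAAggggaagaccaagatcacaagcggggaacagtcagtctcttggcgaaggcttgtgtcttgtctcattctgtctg

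Positions below are those of the first letter of a match relative to the annotated start. TATAAA stood in 6 of the 7 windows, on either strand, and in 13.6% of all 32851 promoter windows searched. It was at position -30 in Krt25 and Krt73, at -29 in Krt12 and at -15 in Krt27. In Krt8 it lay across the annotated start, at -1, with a match on the other strand, at -3, sharing its letters. In Krt84 it was far upstream, at -206. Krt18 was the window without a match. TAATTG was found in 2 of the 7 windows, once in Krt25 and at 2 places in Krt73, against 8.0% of all windows. Nobox itself, given here after its values were seen, had 14919, 15729 and 14357 counts in the knockout libraries, against 6499, 5149 and 5143 in the wild-type libraries (log2 fold change 1.41, edgeR adjusted p = 1.15e-05); its part in the keratin levels was not tested. The GC box GGGCGG (35.7% of all windows) and the AP-1 letters TGANTCA (7.81%) were in none of the 7, and the E-box CANNTG (72.3%) was in 6. These are letter matches in annotated windows, and the counts per gene do not tell which start the oocyte RNA used. Matches were not counted apart for the other keratins, so a trait of the family cannot be told apart from one of the listed genes.

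Krt8 showed the largest gain of the listed genes. It had 489, 190 and 518 counts in knockout replicates 1, 2 and 3, against 15, 11 and 4 counts in wild-type replicates 1, 2 and 3. The level was 11.1 ± 5.19 CPM in the knockout and 0.269 ± 0.13 CPM in wild type (mean ± SD, n = 3 each). Knockout replicate 2 lay 2.78-fold below the highest knockout library, yet the lowest knockout value was far above the highest wild-type value. A count from a pool does not tell how many of its oocytes carried the RNA, and fewer cells with a transcript cannot be told apart from less of it per cell. The log2 fold change, knockout over wild type, was 5.32 ± 0.51 (standard error), a 39.9-fold difference. A processed pseudogene, Krt8-ps, had 6, 0 and 4 counts in the knockout libraries and 0 counts in each wild-type library. Multi-aligned reads were not assigned to genes, so counts of Krt8 and of this copy are uncertain where their sequences coincide.

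Krt18, the usual type I partner of Krt8, was not gained with it. Its counts were 0, 2 and 0 in the knockout libraries and 2, 0 and 0 in the wild-type libraries. Every library was below 3 counts, the limit that a count of 0 allows, which is at most 0.0924 CPM here, so no fold is given and the gene did not pass the filter on low counts. Krt7, a type II keratin of simple epithelia, had 18, 1 and 11 counts in the knockout libraries and 0, 9 and 1 in the wild-type libraries. Krt19, the other common type I keratin of simple epithelia, had no count in any library. Among Krt8, Krt7, Krt18 and Krt19 the gain thus covered Krt8, and the values of Krt7 overlapped between the groups. Neither Krt18 nor Krt19 was read above the limit. The type I gene Krt20, given below, had between 72 and 133 counts in every library and was not called.

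Of the inner root sheath keratins, the type I gene Krt25 had 1054, 1177 and 900 counts in the knockout libraries, against 142, 122 and 146 in the wild-type libraries. This corresponded to 28.8 ± 3.68 CPM in the knockout and 3.83 ± 0.581 CPM in wild type, a log2 fold change of 2.91 ± 0.17 (7.53-fold). It was the most even of the strong gains, with a coefficient of variation of 12.8% among the knockout libraries and 15.2% among the wild-type libraries.

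Krt73, the type II keratin of the root sheath cuticle, had 1420, 1068 and 1456 counts in the knockout libraries, against 315, 209 and 192 in the wild-type libraries. Its level was 36.4 ± 6.71 CPM in the knockout and 6.56 ± 1.10 CPM in wild type, a log2 fold change of 2.47 ± 0.18 (5.54-fold), and the lowest knockout library lay far above the highest wild-type library. Krt27, a type I keratin of all layers of the inner root sheath, had 22, 104 and 125 counts in the knockout libraries, against 2, 14 and 3 in the wild-type libraries. Its level was 2.28 ± 1.46 CPM in the knockout and 0.180 ± 0.190 CPM in wild type. The groups did not overlap, but the spread was wide: the highest knockout library exceeded the lowest 5.43-fold, and wild-type replicate 2 exceeded replicate 1 8.0-fold. The log2 fold change of Krt27 was 3.66 ± 0.81, and 4.97 without wild-type replicate 2.

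Among the remaining root sheath keratins the test called none. The type II gene Krt71 had 78, 31 and 99 counts in the knockout libraries and 165, 67 and 170 in the wild-type libraries (log2 fold change -0.96 ± 0.48, edgeR adjusted p = 0.158). Krt72 had 58, 114 and 57 counts in the knockout libraries and 124, 120 and 114 in the wild-type libraries (log2 fold change -0.67 ± 0.31, edgeR adjusted p = 0.127). Krt71 overlapped between the groups, and Krt72 did not, with the knockout lower. Among low-count genes of type I, Krt26 had 13, 5 and 8 counts in the knockout libraries and 1, 4 and 0 in the wild-type libraries, and Krt28 had 3, 7 and 7 in the knockout libraries and 1, 0 and 16 in the wild-type libraries. Krt26 was higher in each knockout library, at counts too low for the test, and Krt28 overlapped between the groups. Krt24, Krt25, Krt26, Krt27 and Krt28 follow each other along chromosome 11, so strongly gained genes alternated with genes of few counts.

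**Figure D1:**
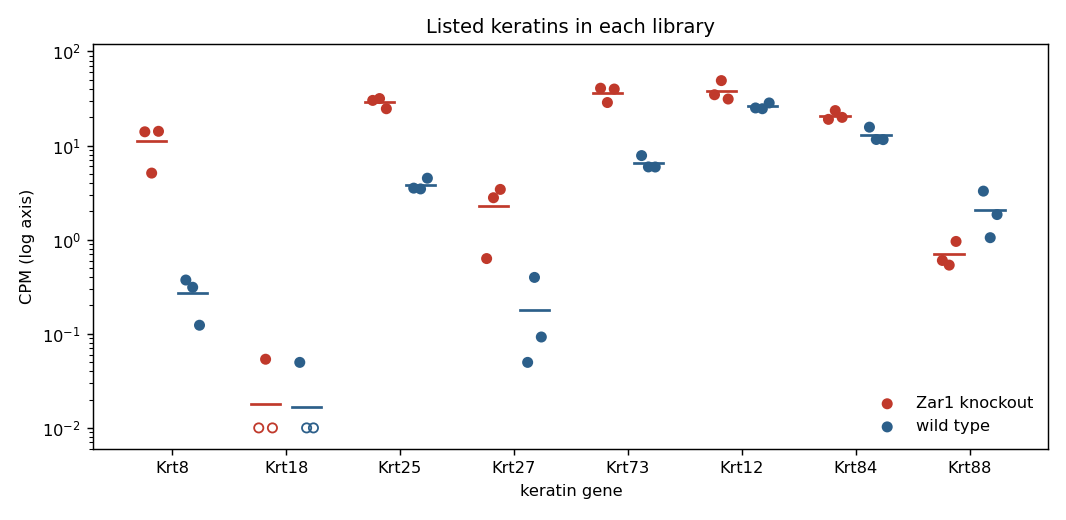
Level of each listed keratin in each library, in CPM on a log axis; points are libraries, horizontal bars are group means, and open points at the foot of the axis are libraries with 0 counts. The 3 knockout libraries lie above the 3 wild-type libraries for Krt8, Krt25, Krt27, Krt73, Krt12 and Krt84, below them for Krt88, and Krt18 is near 0 in both groups.

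Krt12 and Krt84 were already among the higher keratins of wild-type oocytes, and their gains were small. Krt12 had 1211, 1826 and 1141 counts in the knockout libraries, against 1010, 868 and 920 in the wild-type libraries. Its level was 38.3 ± 9.42 CPM in the knockout and 26.02 ± 2.03 CPM in wild type (log2 fold change 0.56 ± 0.17, 1.47-fold). Knockout replicate 2 stood above the others, and knockout replicate 3, at 31.2 CPM, was near wild-type replicate 3, at 28.4 CPM. Krt84 had 663, 877 and 728 counts in the knockout libraries, against 631, 409 and 375 in the wild-type libraries. Its level was 20.8 ± 2.40 CPM in the knockout and 12.9 ± 2.37 CPM in wild type (log2 fold change 0.68 ± 0.16, 1.61-fold), with knockout replicate 1 (19.0 CPM) close to wild-type replicate 1 (15.7 CPM).

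Krt88 ran against the label. It had 21, 20 and 35 counts in the knockout libraries and 132, 37 and 60 counts in the wild-type libraries. The level was 0.699 ± 0.227 CPM in the knockout and 2.06 ± 1.13 CPM in wild type, a log2 fold change of -1.56 ± 0.47 that makes it 2.95-fold lower in the knockout. All knockout libraries were below all wild-type libraries, though knockout replicate 3 (0.958 CPM) and wild-type replicate 2 (1.05 CPM) nearly met.

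In the fit that also chose them, 7 of the 8 listed genes passed the filter on low counts, 6 being higher and 1 lower. The background in that comparison was 33.4% of tested genes called, 14.9% higher and 18.5% lower, and the count of members is not read as a result because of the choice. No library drove the gains together. The highest knockout library was replicate 1 for Krt73, replicate 2 for Krt12, Krt25 and Krt84, and replicate 3 for Krt8, Krt27 and Krt88, and the lowest was replicate 2 for Krt8, Krt73 and Krt88.

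Per kilobase of exon, which allows genes to be compared with each other, Krt12 had the highest mean of all keratins in both groups. It had 20.7 ± 5.09 CPM per kb in the knockout and 14.1 ± 1.10 in wild type. In the knockout that rank rests on replicate 2: Krt12 had 18.7, 26.4 and 16.9 CPM per kb in replicates 1, 2 and 3, and Krt73 had 18.8, 13.2 and 18.4. Among the listed genes alone, Krt12 was followed in the knockout by Krt73 (16.8 ± 3.09), Krt25 (14.5 ± 1.85), Krt84 (7.88 ± 0.910), Krt8 (5.66 ± 2.65), Krt27 (1.47 ± 0.944) and Krt88 (0.774 ± 0.251). In the knockout, libraries of neighbours in this order of listed genes overlapped except between Krt25 and Krt84, between Krt8 and Krt27, and between Krt88 and Krt18. In wild type the order of the listed genes was Krt12, Krt84 (4.90 ± 0.896), Krt73 (3.02 ± 0.507), Krt88 (2.28 ± 1.25), Krt25 (1.93 ± 0.292), Krt8 (0.138 ± 0.0664) and Krt27 (0.116 ± 0.122), also in CPM per kb. There Krt73 overlapped with Krt88, Krt88 with Krt25, and Krt8 with Krt27. Among all 54 keratin genes Krt8 ranked 5 by mean level per kb in the knockout and 16 in wild type, and Krt25 ranked 3 in the knockout and 7 in wild type. Of the unlisted keratins, Krt10 (2.27 ± 0.356 CPM per kb) and Krt76 (1.70 ± 0.058) stood between Krt8 and Krt27 in the knockout, and Krt76 (2.15 ± 0.587) and Krt10 (2.13 ± 0.239) stood between Krt88 and Krt25 in wild type.

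The sums of the 2 types were compared because a filament needs both. The listed type I genes summed to 34.3, 44.2 and 31.4 CPM per kb in knockout replicates 1, 2 and 3, against 15.4, 15.3 and 17.6 in wild-type replicates 1, 2 and 3. The listed type II genes summed to 33.8, 25.3 and 34.2 CPM per kb in the knockout replicates, against 13.4, 8.45 and 9.22 in the wild-type replicates. Krt88 is part of the type II sum, at 3.64, 1.16 and 2.05 CPM per kb in the wild-type replicates. Its annotated coding sequence has 513 bases, against 1470 in Krt8, 1617 in Krt73 and 1809 in Krt84. Both sums were higher in every knockout library, a direction that the choice of genes fixes. The ratio of type II to type I was 0.984, 0.574 and 1.09 in the knockout libraries and 0.869, 0.553 and 0.523 in the wild-type libraries, so it overlapped between the groups. Over all 54 keratin genes the ratio was 0.898 ± 0.247 in the knockout and 0.810 ± 0.161 in wild type.

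Within type I, Krt12 carried 50.1% of the mean level per kb of all type I keratins in the knockout and 67.9% in wild type, and Krt25 carried 35.1% in the knockout and 9.31% in wild type. Within type II, Krt73 carried 46.6% in the knockout and 18.1% in wild type, Krt8 carried 15.7% in the knockout and 0.825% in wild type, and Krt84 carried 21.9% in the knockout and 29.4% in wild type. All keratins together took between 0.0153% and 0.0165% of gene counts in the knockout libraries and between 0.00708% and 0.00818% in the wild-type libraries. They remained a small fraction of the oocyte's mRNA in both groups.

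**Figure D2:**
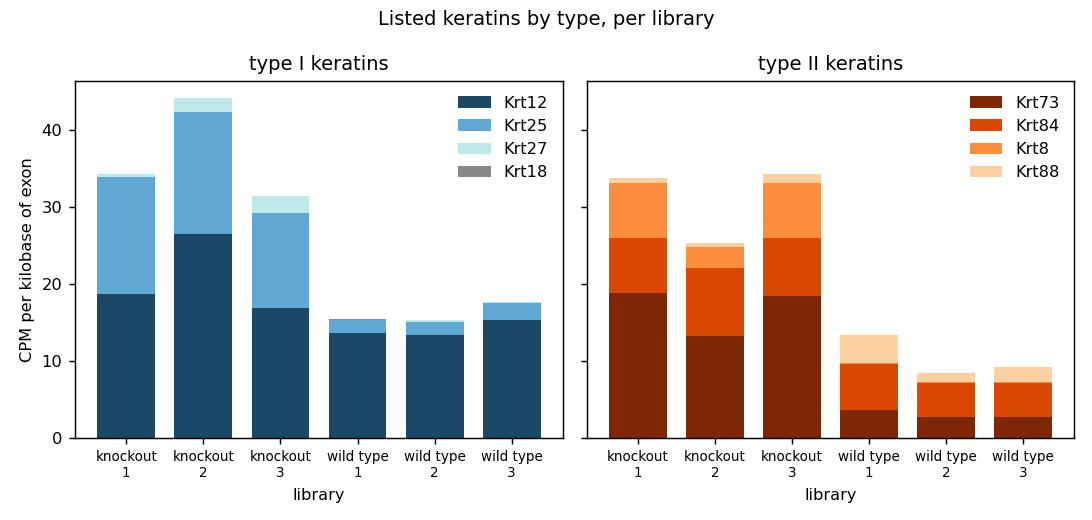
Levels of the listed keratins in CPM per kilobase of exon, stacked by gene, for type I (left) and type II (right) in each library. Type I is carried by Krt12 in wild type and by Krt12 with Krt25 in the knockout, and type II gains Krt73 and Krt8 in the knockout, with less Krt8 in knockout replicate 2.

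The keratins outside the list were compared with the same fit. Of 46 found, 11 passed the filter on low counts, and edgeR called 0 higher and 0 lower, against 14.9% and 18.5% of all tested genes. Of these 11, 1 had an unadjusted p under 0.05 (Krt79), 0 had groups that did not overlap with the knockout higher, against 22.2% of tested genes, and 2 (Krt72 and Krt76) had them with the knockout lower, against 25.5%. Their median log2 fold change was -0.12, beside 0.01 for all tested genes. These genes are what the choice of the 8 left over, so their lack of calls is in part set by it.

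Krt79, a type II keratin of sebaceous and hair canal cells, was the nearest to a call. It had 156, 49 and 29 counts in the knockout libraries and 9, 35 and 14 in the wild-type libraries (log2 fold change 1.99 ± 0.73, edgeR adjusted p = 0.0637). DESeq2 called it (adjusted p = 0.0169), and without knockout replicate 1 its log2 fold change dropped to 0.95 (edgeR adjusted p = 0.296), so its size depended on that library. Over the alternatives that tested it, which leaves out the filter of 1 CPM in 3 libraries, its adjusted p ranged from 0.00116 to 0.296. Krt10, the type I keratin of the upper epidermis, was level, with 193, 181 and 147 counts in the knockout libraries and 192, 138 and 156 in the wild-type libraries. Krt76, an oral keratin, had 140, 141 and 147 counts in the knockout libraries and 164, 152 and 212 in the wild-type libraries (edgeR adjusted p = 0.306).

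Among the other keratins past the filter, Krt20 had between 75 and 110 counts in the knockout and between 72 and 133 in wild type, and Krt80 had between 37 and 73 in the knockout and between 53 and 55 in wild type. Krt42, Krt75, Krt78 and Krt222 stayed below 50 counts in every library and their groups overlapped. Below the filter, Krt87 had 6, 15 and 15 counts in the knockout libraries and 4, 0 and 6 in the wild-type libraries, and Krt36 and Krt13 had at most 10 counts in any library. Of the 54 keratin genes, 10 had no count in any library, the epidermal Krt2, Krt14 and Krt16 among them.

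**Figure D3:**
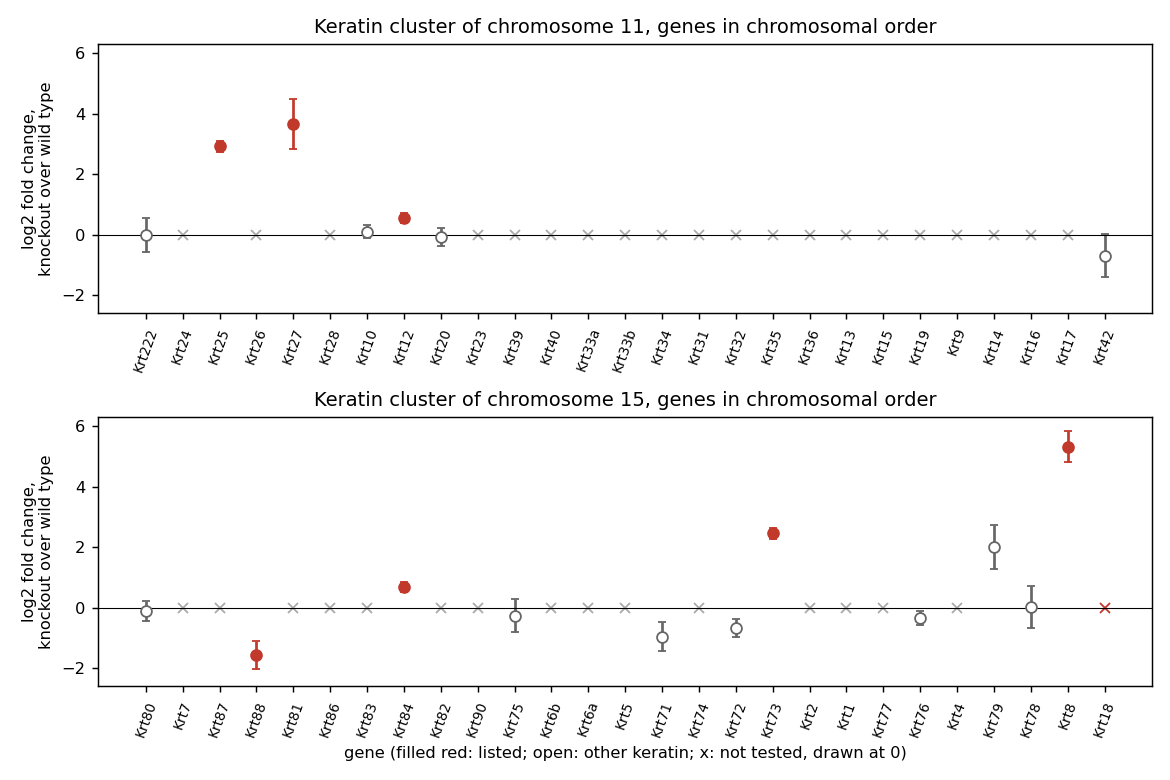
Log2 fold change, knockout over wild type, with its standard error, of keratin genes in their order along the clusters of chromosome 11 (top) and chromosome 15 (bottom); filled points are the listed genes, open points other tested keratins, and crosses genes with too few counts, drawn at 0. Higher genes stand between genes that were not called or had too few counts, and Krt18 is drawn as a cross beside Krt8.

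Genes next to the clusters were examined because the choice of keratins did not use them. The 3 nearest genes on each side of each listed keratin were taken, leaving out keratins and predicted models. Their distances on GRCm38 ran from 41.7 kb (Krt18 to Eif4b) to 795 kb (Krt18 to Grasp), so many lay far from the keratin. This gave 12 different genes in all, of which 6 passed the filter. Of these 0 were higher and 1 was lower, against 14.9% and 18.5% of all tested genes. The lower one was Eif4b, a translation initiation factor beside Krt18, with 7065, 7719 and 8876 counts in the knockout libraries, against 15782, 15465 and 12997 in the wild-type libraries (log2 fold change -0.92, edgeR adjusted p = 0.000139). Tns2, a focal adhesion protein gene beyond it, had a log2 fold change of 0.31 (edgeR adjusted p = 0.161). Atg101 was also called lower without knockout replicate 3. The keratin-associated genes Krtap3-1, Krtap3-2 and Krtap3-3 had no count in any library.

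Among 15 other intermediate filament genes, 8 were tested, of which 2 were higher and 0 lower (14.9% and 18.5% over all tested genes), with a median log2 fold change of 0.35. Nefh, the heavy neurofilament subunit, had 2441, 2475 and 2115 counts in the knockout libraries, against 823, 746 and 726 in the wild-type libraries (log2 fold change 1.60 ± 0.10, edgeR adjusted p = 2.31e-05). Ina, the neuronal filament protein internexin, had 1861, 1740 and 1895 counts in the knockout libraries, against 1338, 1106 and 926 in the wild-type libraries (log2 fold change 0.70 ± 0.10, edgeR adjusted p = 0.000973). The groups did not overlap for either gene. Vim, the filament protein of mesenchymal and granulosa cells, had 0, 4 and 0 counts in the knockout libraries and 4, 4 and 1 in the wild-type libraries. The lamin gene Lmna was not called (log2 fold change -0.07, edgeR adjusted p = 0.549).

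Keratin filaments end on desmosomes and hemidesmosomes through plakins and plakophilins. The list takes in genes of these junctions and of the plakin and plakophilin families, whether or not the protein links keratin. Of 20 genes found, 12 were tested, 4 were higher and 0 lower (14.9% and 18.5% over all tested genes), with a median log2 fold change of 0.33. Pkp4, a plakophilin, had 4162, 4253 and 4257 counts in the knockout libraries, against 3686, 2930 and 2685 in the wild-type libraries (log2 fold change 0.44 ± 0.08, edgeR adjusted p = 0.00263). Itgb4, the hemidesmosome integrin subunit that binds plectin, had 79, 112 and 147 counts in the knockout libraries, against 47, 54 and 39 in the wild-type libraries (log2 fold change 1.25 ± 0.30, edgeR adjusted p = 0.0126). Itga6, its partner subunit, rose by a log2 fold change of 0.21 (edgeR adjusted p = 0.0395) and Macf1, a spectraplakin, by 0.40 (edgeR adjusted p = 0.0148). The subunits differed widely in level. Itgb4 was at 3.10 CPM in the knockout and 1.30 CPM in wild type, Itga6 at 1034 and 896 CPM. The Itga6 call was lost with library sizes alone, with no filter on low counts, with the replicate block and without any 1 library other than knockout replicate 1. The number called higher was 2 without wild-type replicate 1 and 1 without wild-type replicate 3, where Pkp4 was the one called. Dsp, which anchors keratin at the desmosome, had 302, 87 and 74 counts in the knockout libraries and 113, 82 and 49 in the wild-type libraries, and was not called (edgeR adjusted p = 0.206). Pkp2, Jup, Plec and Dst were not called either.

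Of 27 regulators of keratin genes and filaments found, 22 were tested, 1 was higher and 5 were lower, with a median log2 fold change of 0.01. Over all tested genes 14.9% were higher and 18.5% lower, so these counts do not set the regulators apart. Hspa8, a constitutive chaperone, had 12536, 13212 and 12121 counts in the knockout libraries, against 10001, 8497 and 8552 in the wild-type libraries (log2 fold change 0.47 ± 0.07, edgeR adjusted p = 0.00115). Ywhag, a 14-3-3 protein gene, had 8976, 7752 and 11296 counts in the knockout libraries, against 19256, 17596 and 15296 in the wild-type libraries (log2 fold change -0.90 ± 0.13, edgeR adjusted p = 0.00087). Members of the 14-3-3 family bind phosphorylated keratins. Fam83g fell by a log2 fold change of -0.47 (edgeR adjusted p = 0.009) and the small heat shock gene Hspb1, whose protein associates with keratin filaments, by -1.78 (edgeR adjusted p = 0.0109).

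The other genes called lower are named because of their small number, after their values were seen. Grhl2, a grainyhead transcription factor of epithelial genes, had 86, 89 and 313 counts in the knockout libraries, against 626, 600 and 534 in the wild-type libraries (log2 fold change -1.87, edgeR adjusted p = 0.0115). Fos, an AP-1 subunit, had 8, 20 and 3 counts in the knockout libraries, against 45, 53 and 47 in the wild-type libraries (log2 fold change -2.24, edgeR adjusted p = 0.016), a call that was lost without wild-type replicate 2, wild-type replicate 3 or knockout replicate 1. The call of Hspb1 was lost without wild-type replicate 3. The epithelial regulators Trp63, Klf4, Tfap2a and Tfap2c were not called. Trp63 had 1594, 1099 and 1311 counts in the knockout libraries and 1338, 1169 and 1169 in the wild-type libraries.

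Because Krt8 and Krt18 also mark cells that surround the oocyte, markers of other cell types were set beside the keratins. Of 99 such markers other than the listed keratins, 43 were tested, of which 4 were higher and 10 lower, against 14.9% and 18.5% of all tested genes. The number lower was between 4 and 7 with any 1 library left out. Granulosa markers, 15 of them, summed to 504.5 to 585 CPM in the knockout libraries and 603 to 646 CPM in the wild-type libraries (exact two-sided permutation p = 0.1, the smallest that 3 against 3 libraries allow). That sum rests on genes with high counts in every library, such as Serpine2 and Cyp19a1. Serpine2 alone was at 426 CPM in the knockout and 509 CPM in wild type, a larger fall than that of the sum. The other granulosa markers together were therefore not lower in the knockout. The calls with the smallest adjusted p went both ways: Nr5a2, a nuclear receptor gene, had 2940, 2751 and 2770 counts in the knockout libraries, against 2030, 1749 and 1800 in the wild-type libraries (edgeR adjusted p = 0.00143), and Kitl, the KIT ligand gene, had 17, 21 and 49 counts in the knockout libraries, against 176, 132 and 128 in the wild-type libraries (edgeR adjusted p = 0.00222). The defining granulosa gene Amh had 1, 4 and 1 counts in the knockout libraries and 3, 2 and 0 in the wild-type libraries, Amhr2 had 3, 11 and 16 in the knockout libraries and 27, 5 and 2 in the wild-type libraries, and Fshr had 0, 47 and 0 in the knockout libraries and 8, 1 and 4 in the wild-type libraries. Amh and Fshr did not pass the filter on low counts, and all knockout counts of Fshr came from replicate 2. Cyp11a1, the steroidogenic side-chain cleavage enzyme gene, had 67, 38 and 224 counts in the knockout libraries and 118, 98 and 59 in the wild-type libraries. Its order among the knockout libraries was that of Krt8, and Inha (18, 13 and 29 counts there) had the same order. Krt8, however, was nearly equal in knockout replicates 1 and 3 (14.0 and 14.2 CPM), so its order rests on the low replicate 2. Cyp11a1 was far higher in knockout replicate 3 than in replicate 1. Hsd17b1 (33, 64 and 149), Hsd3b1 (11, 19 and 77) and Inhbb (1, 7 and 80) were instead lowest in knockout replicate 1. Wild-type replicates 1 and 2 had more Cyp11a1 than knockout replicate 1. These genes were picked out after their values were seen, and the part of granulosa RNA in the keratin levels was not tested.

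Ovarian surface epithelium markers, 12 without the listed keratins, summed to 218 to 235 CPM in the knockout libraries and 262.5 to 282 CPM in the wild-type libraries (exact two-sided permutation p = 0.1). Cdh1, E-cadherin, was at 179 CPM in the knockout and 228 CPM in wild type, a fall as large as that of the sum. It had 5954, 7010 and 6475 counts in the knockout libraries, against 9353, 8236 and 7032 in the wild-type libraries (log2 fold change -0.35, edgeR adjusted p = 0.0062). The other markers of this list together were not lower in the knockout. Aldh1a2, Muc16 and Epcam overlapped between the groups. Of the list's defining genes, Krt19 was at 0 in all libraries, Msln was at 0 in each knockout library and at 0, 4 and 1 in the wild-type libraries, and Upk3b had 200, 117 and 230 counts in the knockout libraries and 257, 153 and 143 in the wild-type libraries. Trophectoderm markers without the listed keratins, with Krt7 and Krt19 still among them, summed to 150, 130 and 174 CPM in the knockout libraries. In the wild-type libraries they summed to 127, 135 and 128 CPM (exact two-sided permutation p = 0.2). Their defining genes Cdx2, Eomes and Elf5 had at most 11 counts in any library, whereas Gata3 had between 695 and 1356 counts and was not called. Of that list Id2, an inhibitor of helix-loop-helix factors, was higher (394, 543 and 564 counts in the knockout libraries, against 360, 293 and 264 in the wild-type libraries; edgeR adjusted p = 0.0103). Dppa1 was lower (105, 156 and 128 counts in the knockout libraries, against 245, 231 and 202 in the wild-type libraries; edgeR adjusted p = 0.0127).

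Markers of the tissues in which the other listed keratins are known were examined too. Inner root sheath and hair markers without the listed keratins had 7 of 15 tested, 1 higher (Lef1) and 1 lower (Tgm1), beside 14.9% and 18.5% over all tested genes. The Tgm1 call was lost without any 1 library other than knockout replicate 2. It was also lost with no filter on low counts, with DESeq2 and with the replicate block. With the filter of 1 CPM in 3 libraries Tgm1 was not called. Tchh, the trichohyalin of the root sheath, had 8, 14 and 12 counts in the knockout libraries and 2, 13 and 5 in the wild-type libraries. Of corneal markers, Pax6 had 12, 2 and 5 counts in the knockout libraries and 14, 65 and 34 in the wild-type libraries and was called lower (log2 fold change -2.58, edgeR adjusted p = 0.0282). That call was lost with limma-voom, with the replicate block, and without knockout replicate 2 or 3 or wild-type replicate 2 or 3, and Pax6 was not called with the filter of 1 CPM in 3 libraries. Aldh3a1 had 0, 4 and 0 counts in the knockout libraries and 18, 7 and 1 in the wild-type libraries. Epidermal markers summed to 8.75 to 10.1 CPM in the knockout libraries and 7.80 to 9.22 CPM in the wild-type libraries, nearly all of it Krt10 and Dsg1a, with Krt14 and Lor at 0 throughout. Theca and stroma markers summed to 1.46 to 2.82 CPM in the knockout libraries and 3.52 to 4.42 CPM in the wild-type libraries. Haemoglobin genes were at 0 in all libraries, Ptprc was at 0 in the knockout libraries and at 3, 0 and 0 in the wild-type libraries, and the endothelial gene Cdh5 had at most 1 count. Endothelial markers summed to 38.1 to 45.8 CPM in the knockout libraries and 34.8 to 37.7 CPM in the wild-type libraries, mostly Pecam1, and inner root sheath and hair markers to 142 to 159 CPM in the knockout libraries and 117 to 125 CPM in the wild-type libraries. Both sums were higher in each knockout library (exact two-sided permutation p = 0.1). Most of the second was Lef1, a transcription factor of Wnt signalling, at 116 CPM in the knockout and 85.4 CPM in wild type (log2 fold change 0.44, edgeR adjusted p = 0.00585). The part of these in the keratin levels was not tested.

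**Figure D4:**
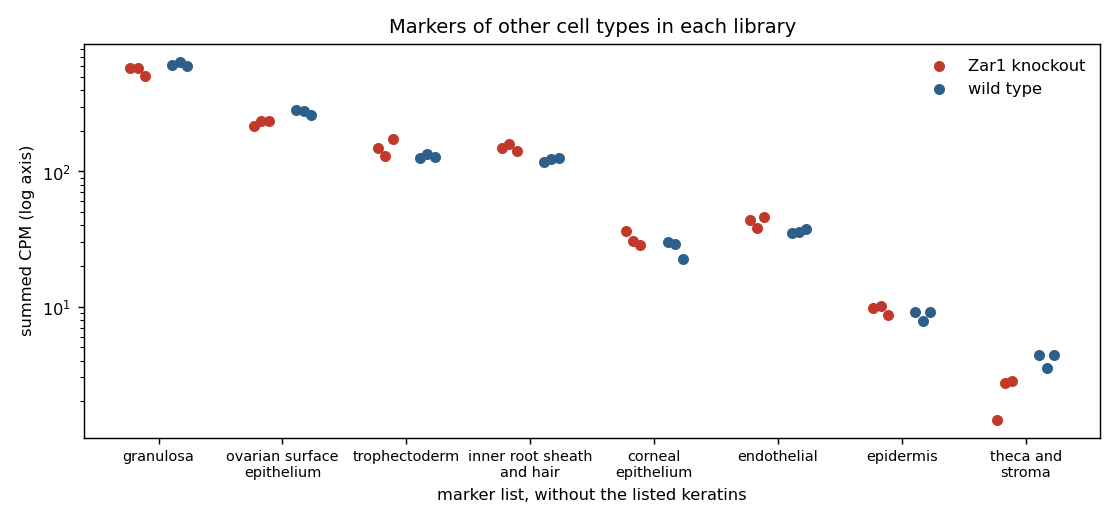
Summed level of 8 marker lists without the listed keratins, in CPM on a log axis, with 1 point per library. Granulosa, surface epithelium, and theca and stroma lists lie lower in the knockout libraries than in the wild-type libraries. The granulosa and surface epithelium sums follow Serpine2 and Cdh1, the most abundant gene of each. The inner root sheath and hair, and endothelial lists lie higher, and the other 3 lists overlap between the groups.

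The genes whose pattern over the 6 libraries was closest to that of Krt8 were Card9, Sele, Isx, Rab27b and P4ha3. Closeness is the root mean square difference of log2 CPM after each gene was centred on its own mean, and it was between 0.853 and 1.02 for these 5. Sele, the endothelial adhesion molecule E-selectin, had 59, 52 and 38 counts in the knockout libraries and 0, 0 and 1 in the wild-type libraries. Isx, an intestinal homeobox factor gene, had 482, 460 and 806 counts in the knockout libraries and 38, 114 and 14 in the wild-type libraries. Card9, an adaptor of innate immune receptors, had 88, 69 and 116 counts in the knockout libraries and 9, 8 and 3 in the wild-type libraries. They share with Krt8 a wild-type level that is low beside the knockout level. Krt18 had too few counts for such a comparison.

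The 3' untranslated regions (UTRs) of the listed keratins, taken from GENCODE M21 models, were short, as were those of other keratins. They ran between 66 bases in Krt18 and 693 bases in Krt84, with a median of 311.5 bases, beside a median of 372 bases over 45 other keratins and of 917 bases over 12919 tested protein-coding genes. The cytoplasmic polyadenylation elements TTTTAT or TTTTAAT, which recruit CPEB1 to stored maternal mRNA, were found in 1 of the 8, against 58.4% of the tested genes and 6 of 45 other keratins. The 1 was Krt73, with the element in capitals, 423 bases before the end of the transcript model.
Krt73 element: actcctcctgTTTTATttaccattgc
The destabilising pentamer ATTTA was in 2 of the 8 (Krt12 and Krt73), against 11 of 45 other keratins and 65.1% of the tested genes. A longer UTR has more room for either element, and the annotated ends may differ from those used in oocytes.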

How the data were processed

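PolyA RNA from 6 pools of 10 GV oocytes was analysed, 3 Zar1 knockout and 3 wild type, grouped by the labels. The deposited values are whole-number counts of reads per gene in a separate file for each library, not normalized. STAR 2.7.8a, HTSeq 0.13.5, cutadapt 2.8 and bcl2fastq 2.20.0.422 are named in the submitters' processing notes, as is the build mm39. Annotation release and strand setting: not given in the sources used here. Therefore counts of overlapping, antisense and near-identical genes are uncertain. The 5 summary rows of the counter were left out of library sizes and tests; reads with more than 1 alignment were 13.9% to 15.0% of all reads tallied, reads outside genes 4.84% to 5.70% and reads in more than 1 gene 4.21% to 4.42%. Of 53700 gene rows 52093 had a symbol.

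The quasi-likelihood test of edgeR 4.0.16 (R 4.3.3) was run on genes kept by filterByExpr, with TMM factors, genotype as the only term and a threshold of 0.05 on the adjusted p. Standard errors come from the fold change and the F statistic. Exon lengths, gene order and 3' UTRs came from GENCODE M21 and promoters from RefSeq, both on GRCm38 and not on mm39, so positions are given for the promoter windows alone. The steps were tested on simulated counts. Pairs of libraries of 1 genotype differed beyond counting noise (chi-square over degrees of freedom between 12.8 and 39.9). Members and lists were chosen with earlier results of these data known. The genes named are the listed keratins, other keratins with at least 10 counts in a library, up to 4 called genes of each partner, linker, regulator and neighbour list by smallest adjusted p, defining markers, and the 5 genes closest to Krt8. Other markers of other cell types were named after their values were seen. Counting limits cover counting error only.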

Additional observations from a re-analysis of the deposited data

How the results depend on the processing

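The results were recomputed with 3 other scalings (upper-quartile, RLE, library size alone), without the low-count filter and with a CPM filter, in limma-voom 3.58.1 and DESeq2 1.42.0, with the replicate number as a block, and with each library left out. The 7 tested listed keratins kept the sign of their fold change wherever they were fitted. With 1 library left out, log2 fold changes ranged from 3.18 to 4.97 for Krt27, with 4.97 without wild-type replicate 2. No other listed keratin moved by more than the spread between libraries. Krt27 did not pass a filter of 1 CPM in 3 libraries. Same-numbered libraries did not deviate together over the tested genes (correlations -0.00898, -0.042 and -0.0252). This does not show whether they shared a preparation, which the labels do not say. With the replicate block 2078 genes were higher and 2760 lower, beside 2448 and 3051 without it.

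Among keratins outside the list, where 0 were called in each direction, 1 was higher (Krt79) and 1 lower (Krt71) with no filter on low counts, 1 was higher with DESeq2 (Krt79), and 1 was lower with the replicate block (Krt71). With 1 library left out, between 0 and 1 were higher and between 0 and 1 lower. Of the keratin regulators 2 were higher with upper-quartile factors (Hspa8 and Sp1), and 4 markers of other cell types were lower under the filter of 1 CPM in 3 libraries, which tests fewer genes. Leaving out 1 library gave between 1541 and 2509 genes higher in all, between 1 and 4 desmosome and plakin genes higher, between 1 and 2 regulators higher, between 1 and 2 neighbouring genes lower, and between 4 and 7 markers of other cell types lower. Where not stated, the cause was not tested. At 1 count per 0.0248 to 0.0308 CPM, values of genes under 10 counts rest on few reads.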
